A study of Mus musculus with 18 samples.

Results

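The transcripts described here were assembled from mouse fibroblast RNA-seq reads in places where the RefSeq annotation of the mm10 genome has no gene. Each library had been assembled on its own, and the merged assembly marks a transcript with the code u when it touches no reference gene and is counted as intergenic. Of 24429 loci in the merged assembly, 1408 held only transcripts of that code. A locus was kept when at least 2 of the 18 libraries listed an assembled transcript above 0 with at least 50% of its bases in the exons of the locus, which left 937 loci with 1265 transcripts. The 471 loci seen in exactly 1 library, and 63 loci in which intergenic transcripts stand beside transcripts of other codes, were not counted as members.

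The cells were immortalised embryonic fibroblasts of rela-/- mice into which mouse RelA had been put back. RelA(wt) cells carry the wild-type protein, RelA(TA2) cells carry the substitutions L449A and F473A in the transactivation domain, and RelA(Ser276Ala) cells carry the substitution S276A in the DNA-binding domain. Each line was harvested without TNFα and after 1 h or 2 h of 5 ng/ml TNFα, which gave 9 conditions with 2 libraries each, stated by the study's methods to be independent. The sources used here do not say whether a line is a clone or a pool of cells, so a difference between lines cannot be told apart from a difference between the cells that were grown out. All 12 fibroblast markers examined were above 1 FPKM, with a summed level of 4130 to 5620 FPKM per library, while 4 of 7 macrophage markers were detected at a summed 15.6 to 38.5 FPKM. Rela itself was at 156 to 187 FPKM in RelA(wt), 315 to 366 FPKM in RelA(TA2) and 174 to 211 FPKM in RelA(Ser276Ala) cells. These values are of mRNA and do not give the amount of protein. On the study's protein blots, the S276A form was clearly less abundant than the wild-type form. Whether that shortfall bears on the differences between the lines was not tested.

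RelA is the main activating subunit of NF-κB, which TNFα releases into the nucleus within minutes and which turns on inflammatory and feedback genes partly through the coactivators CBP and p300. Many mammalian genes outside the protein-coding set are transcribed as long non-coding RNAs, as divergent transcripts from the promoters of neighbouring genes, as precursors of microRNAs or as run-on RNA behind a gene's end. Processed pseudogenes, which are copies of spliced mRNAs inserted back into the genome, can collect reads from the gene they came from because their sequences are nearly the same.

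What some of the short loci hold can be seen in their sequence. The 3 sequences below are whole short loci, each lying inside a pseudogene exon of GENCODE M21 (GRCm38, the assembly called mm10). They are printed because each is an almost exact copy of the coding transcript of a gene on another chromosome. They are written on the strand of the pseudogene, and capitals mark the bases that differ from that coding transcript. The first lies at chr5:49552365-49552505 (plus strand, Gm5555) and matches Nsfl1c over 98.58% of its bases. The second, at chr4:11401094-11401233 (plus strand, Gm11821), matches Gxylt1 over 98.57%, and the third, at chr7:105412804-105413039 (minus strand, Gm4972), matches Prrc2c over 98.31%.
XLOC_017181: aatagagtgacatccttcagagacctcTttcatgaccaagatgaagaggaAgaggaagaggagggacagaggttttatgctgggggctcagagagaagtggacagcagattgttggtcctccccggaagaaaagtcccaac
XLOC_015788: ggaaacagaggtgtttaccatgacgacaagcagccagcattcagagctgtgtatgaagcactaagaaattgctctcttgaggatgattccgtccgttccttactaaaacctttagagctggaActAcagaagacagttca
XLOC_020717: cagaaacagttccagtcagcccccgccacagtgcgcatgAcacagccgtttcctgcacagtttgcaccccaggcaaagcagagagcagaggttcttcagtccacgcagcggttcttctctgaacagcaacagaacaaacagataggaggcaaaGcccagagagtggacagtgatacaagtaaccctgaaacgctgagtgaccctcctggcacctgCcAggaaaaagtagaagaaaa
Their median levels over the 18 libraries were 378, 228 and 170 FPKM. Of the 144 loci under 300 bases, 43 met no GENCODE exon and have no sequence here, while 27 lie whole within such an exon and have one. Among these 27, 25 matched the coding transcript of another gene at 95% or more, with identities of 96.27% to 100% and a median of 98.57%. Reads of such loci and of the genes they copy cannot be told apart with certainty, and their levels are uncertain for that reason.

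A second set of sequences stands beside the locus that carried the most fragments among those that rose in RelA(wt) cells at 1 h, XLOC_024299 (chrX:19147100-19153089), which starts 129 bases upstream of Mir222. The mature microRNAs of that cluster, from RefSeq on GRCm38.p6, lie on the minus strand at chrX:19146307-19146329 and chrX:19146901-19146923. Capitals mark the seed, bases 2 to 8, which both share.
miR-221-3p: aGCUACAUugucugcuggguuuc
miR-222-3p: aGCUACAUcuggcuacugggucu

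The last set is of promoters that spliced loci reach into from the opposite strand. Shown are the 250 bases before the start of Pcsk6, a proprotein convertase, at chr7:65861886-65862135 (plus strand), and before the start of Ccn1 (named Cyr61 in the assembly), a secreted matrix protein of the immediate-early class, at chr3:145649986-145650235 (minus strand), both from RefSeq on GRCm38.p6. Capitals mark the 126 bases that belong to XLOC_020113 and the 78 bases that belong to XLOC_013746.
Pcsk6: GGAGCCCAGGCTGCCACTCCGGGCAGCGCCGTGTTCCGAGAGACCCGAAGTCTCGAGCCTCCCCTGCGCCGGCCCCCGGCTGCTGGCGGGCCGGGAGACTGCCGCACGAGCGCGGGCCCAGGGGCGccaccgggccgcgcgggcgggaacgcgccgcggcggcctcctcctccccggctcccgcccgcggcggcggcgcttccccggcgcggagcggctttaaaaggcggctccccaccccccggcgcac
Ccn1: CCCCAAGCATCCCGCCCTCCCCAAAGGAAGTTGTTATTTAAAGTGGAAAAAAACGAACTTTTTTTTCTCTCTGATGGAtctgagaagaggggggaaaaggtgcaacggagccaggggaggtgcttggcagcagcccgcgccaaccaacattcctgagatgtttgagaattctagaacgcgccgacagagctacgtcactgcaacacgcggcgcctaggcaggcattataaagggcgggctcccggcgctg
The Pcsk6 window is 81.2% G and C and holds 4 matches to a loose form of the κB motif, GGG then 5 bases of any kind then CC, searched on both strands with overlaps counted. The Ccn1 window is 54.8% G and C and holds 0 matches. TGANTCA, the AP-1 motif, has 0 matches in either window. Across 32851 RefSeq promoter windows, 45.8% hold the κB form and 6.75% hold TGANTCA, so that a match to the first is common at this length.

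The intergenic loci were short and mostly unspliced. Their exons covered 76 to 17331 bases with a median of 981, against a median of 2350 for the 23263 RefSeq genes and of 532 for loci seen in 1 library. A single exon made up 652 loci (69.6%), compared with 13.3% of RefSeq genes and 90.4% of the loci seen in 1 library. The 285 spliced loci comprised 151 with 2 exons, 68 with 3, 62 with 4 to 9 and 4 with 10 or more. At the ends of the size range stood 144 loci under 300 bases and 37 over 5000 bases. The longest, XLOC_011858 (chr2:131720341-131749775, plus strand), had 10 exons and 15 assembled transcripts, and XLOC_007071 (chr15:58510090-58665146, plus strand) had the most exons, 41. A strand was given for 303 loci.

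Many loci were near a gene. The median distance to the nearest RefSeq gene was 9173 bases over the 935 loci with one on their chromosome, with 199 loci within 1 kb, 387 within 5 kb and 210 farther than 50 kb. Seen from the gene, 500 loci lay upstream, 431 downstream and 4 overlapped the span of the gene on the other strand. Where the strand was known, 101 upstream loci ran in the opposite direction to their gene and 74 in the same direction. Within 5 kb the split was 56 against 24, and the 56 are arranged as divergent transcripts are. Downstream loci within 5 kb that ran on in the direction of their gene numbered 8.

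Later annotations differ in how many of these loci they place in a gene. The gene spans of RefSeq GRCm38.p6, introns included, covered at least 50% of the bases of 554 of the 937 loci. By exons of GENCODE M21, 474 of the 937 loci met none and 170 had under 50% of their bases in the exons of any single gene. Of the others, 102 lay in a long non-coding RNA gene, 97 in a protein-coding gene, 74 in a pseudogene and 17 in a gene listed as still to be tested by experiment. Long non-coding RNA genes held 61 of the 285 spliced and 41 of the 652 single-exon loci, and 103 and 371 of them met no exon. Among the 144 loci under 300 bases, 52 lay in pseudogenes. Splice sites bear on this directly. Of 2616 introns in all transcripts of code u, counted once per transcript, 62.31% had both ends in GENCODE. For RefSeq genes with a single transcript in the same assembly it was 99.44%. Loci with many exons and transcripts weigh most in such a count. By transcript, 335 of the 719 with at least 2 exons had at least 1 GENCODE intron.

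**Figure D1:**
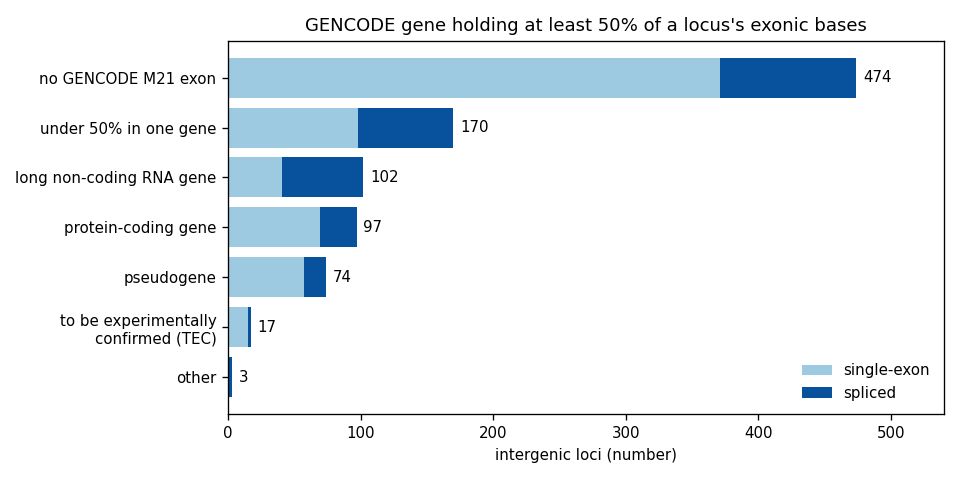
Number of intergenic loci (x axis) in each class of GENCODE M21 annotation (y axis), with single-exon and spliced loci stacked. The class with no exon is the longest bar at 474 loci, and in the long non-coding RNA class the spliced part, 61 of 102 loci, is larger than the single-exon part.

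The values behind most loci were small. FPKM, fragments per kilobase of transcript per M mapped fragments, is a level per length. For genes with 1 assembled transcript, the deposited upper confidence bound gave a number of fragments. Of these numbers under 500 in a library, 88.9% to 90.2% were within 0.02 of a whole number. They gave the typical fragments per FPKM at each transcript length in that library. The FPKM of each assembled transcript was multiplied by this factor for its length. The products, summed over a locus, are its recovered fragments, which are thus estimates. Over the 8254 values above 0, the median was 25 fragments, 85.4% were under 100 and the lowest was 8, so a locus listed at 0 may still have had a few fragments that were not assembled. Of all values of the members, 51.1% were 0, against 6.03% for tested genes. An exact 0 can also be a failed estimate, since 75 of 4116 genes with a median of 20 FPKM or more were listed at 0 in some library. For this reason each library's value is given below and no fold is given against a group at 0.

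How high a locus stood depended on the scale. Values above 0 had a median of 2110 FPKM for loci under 300 bases and 2.47 FPKM for longer ones, yet the median number of fragments was 23 and 26. The 10 loci with the highest median FPKM covered 81 to 334 bases. XLOC_006710 and XLOC_006031 led them, the latter a stretch of 95 bases mostly in the pseudogene Gm9616 with 50400 to 155000 FPKM.

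**Figure D2:**
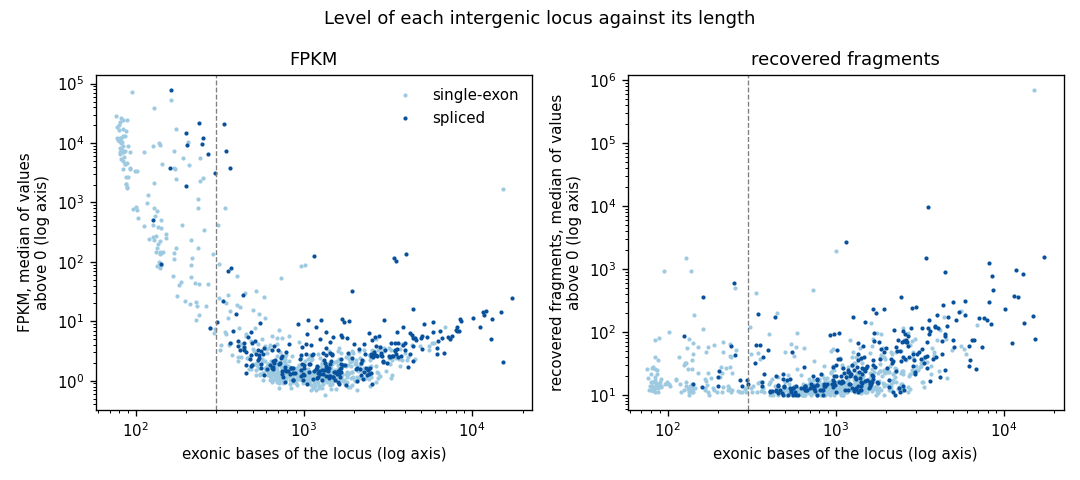
Median of the values above 0 for each intergenic locus against its exonic bases, both on log axes, in FPKM (first panel) and in recovered fragments (second panel), with a dashed line at 300 bases. Left of the line the FPKM rise to a median of 2110 while the fragments keep a median of 23.

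The loci were seen unevenly across libraries. A median of 7 libraries held each locus, and each library held 389 to 529 of them. All 18 libraries held 168 loci, and 170 were above 0 in exactly 2 libraries, of which 26 had both libraries from 1 condition. Loci seen in 1 line alone numbered 36 for RelA(wt), 39 for RelA(TA2) and 30 for RelA(Ser276Ala). Libraries held 25.3 to 31.2 M fragments, and 0.17% to 0.23% of the fragments recovered over all assembled transcripts were in the intergenic loci, with 2 exceptions. The first RelA(TA2) library without TNFα had 2.82% and the first RelA(Ser276Ala) library at 1 h had 2.89% of them there, nearly all in XLOC_023272 on the mitochondrial chromosome (1640 and 1710 FPKM). Counts of loci without these libraries are given beside the results they touch.

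To ask which loci changed with TNFα or between lines, log2(FPKM + 0.5) of all features that reached 1 FPKM in 2 libraries was fitted with limma over the 9 conditions, and p-values were adjusted over all 13217 features. The loci that entered numbered 839 of 937. A locus that passed through 1 condition or 1 line alone had to differ there, so counts of such loci and the adjusted p of loci at 0 in all other groups are a description, and counts are set beside the share of all features called. The median spread between libraries of 1 condition was 0.858 on the log2 scale for the loci and 0.308 for genes, and 9 residual degrees of freedom were left. Each test was repeated on recovered fragments per M fragments in RefSeq genes, which are not divided by the length assembled. Bulk RNA cannot tell fewer cells of a kind apart from less RNA per cell.

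In RelA(wt) cells 10 loci were higher after 1 h of TNFα and 3 were lower. Assembled transcripts placed in loci with code u numbered 732 and 875 in the RelA(wt) libraries without TNFα. At 1 h they numbered 916 and 871, and at 2 h 659 and 746. Whether such numbers bear on the calls in any line was not tested. Over all features 1.44% were called (0.991% higher and 0.446% lower), and of the loci 1.55%, so that the loci as a group responded at about the background. All 10 that were higher also passed on recovered fragments, where 37 loci were called, 4.41% of the loci beside 6.54% of all features. After 2 h 3 loci were higher and 5 lower, 0.95% of the loci beside 1.6% of all features (1.19% higher and 0.409% lower). On fragments 34 loci were called, 4.05% of the loci beside 11.8% of all features. The locus with the most fragments at 1 h was XLOC_024299, a single-exon stretch of 5990 bases next to Mir222, whose microRNA targets the mRNA of the cell-cycle inhibitor p27. It had 11 and 0 fragments before TNFα, 207 and 225 at 1 h, and 0 and 0 at 2 h. In RelA(TA2) cells the fragments were 0 and 0, 26 and 44, and 0 and 0 at the same times, and in RelA(Ser276Ala) cells all 6 libraries were at 0. Apart from 11 fragments in 1 library the locus was thus seen at 1 h alone, in 2 of the 3 lines. It passed at 1 h in RelA(wt) (adjusted p = 0.018 on FPKM and 0.0007 on fragments) and in RelA(TA2) cells (0.0037 and 0.0036), while the difference between the RelA(Ser276Ala) and RelA(wt) changes missed the threshold (0.31 and 0.079). The entry for Mir222, whose hairpin is 79 bases, was listed at 32.7 and 23.8 FPKM in RelA(wt) cells at 1 h. In RelA(TA2) cells at 1 h it was at 0 and 27.1 FPKM, and in all other libraries at 0. Its recovered fragments were 1486 and 1762 in RelA(wt) and 0 and 1443 in RelA(TA2) cells at 1 h. The entry did not pass on FPKM (adjusted p = 0.06 and 0.39). The length of the transcript counted there was not examined, so these values do not give the level of the microRNA. Whether the values of 0 reflect expression or the placing of transcripts was not tested.

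XLOC_015815 (chr4:117702708-117703999, 1292 bases, single exon), 20483 bases upstream of Dmap1 and within the GRCm38.p6 span of Gm34746, was higher at both times in RelA(wt) cells. Its fragments there were 0 and 0 before TNFα, 27 and 37 at 1 h, and 46 and 46 at 2 h. RelA(TA2) cells had 0 at the first 2 times and 11 and 24 at 2 h, and RelA(Ser276Ala) cells had 0 throughout. The RelA(wt) libraries with TNFα stood above every other library of the series. The change passed in RelA(wt) at 1 h (adjusted p = 0.0025) and 2 h (0.0027) and in RelA(TA2) at 2 h (0.014). The difference from the RelA(wt) change passed on fragments for RelA(TA2) at 1 h (0.015) and for RelA(Ser276Ala) at 1 h (0.031) and 2 h (0.0086), but on FPKM these were 0.074, 0.095 and 0.094.

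The other loci that were higher in RelA(wt) cells at 1 h were low to moderate in level. XLOC_002470 had 89 and 76 fragments at 1 h and 0 in the other 4 RelA(wt) libraries (adjusted p = 0.0047 on FPKM). XLOC_007863, 2314 bases from Cacnb3 as assembled but within its GRCm38.p6 span, had 72 and 75 fragments at 1 h (adjusted p = 0.0095). XLOC_011797, in the span of 4930417H01Rik, had 66 and 50 (0.044). The remaining ones, XLOC_003082 in the non-coding gene B230206L02Rik, XLOC_009777, XLOC_017175 in the GRCm38.p6 span of 5031425E22Rik, XLOC_008608 in that of Gm41414, and XLOC_015787 in that of Chchd7, reached 0.835 to 5.77 FPKM at 1 h. XLOC_015787, within the GENCODE exons of Chchd7 for 78.2% of its bases, was called at 1 h in all 3 lines (adjusted p = 0.049, 0.038 and 0.00082 on FPKM). It was then at 1.36 and 0.835 FPKM in RelA(wt), 0.922 and 1.32 FPKM in RelA(TA2) and 6.2 and 2.7 FPKM in RelA(Ser276Ala) cells. Its fragments at 1 h were alike in the 3 lines, at 11 and 39, 13 and 44, and 11 and 35 in the same order. The nearest genes of the 10 loci were all tested, and 0 of them were called higher in the same comparison. For loci that were lower, XLOC_002501 (1.09 and 1.03 FPKM) and XLOC_023267 (1.02 and 2.7 FPKM), the latter within the GRCm38.p6 span of Acvr2b, were above 0 without TNFα in RelA(wt) cells and at 0 in the other 16 libraries.

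RelA(TA2) cells had the most loci that were higher after 1 h, 21, with 1 lower, and all 22 also passed on recovered fragments. That is 2.62% of the loci beside 1.88% of all features, and for higher calls alone 2.5% beside 1.16%. On fragments 73 loci were called, 8.7% of the loci beside 9.89% of all features. Assembled transcripts placed in loci with code u numbered 698 and 716 in RelA(TA2) cells without TNFα. At 1 h they numbered 849 and 870, and at 2 h 742 and 797. Whether this bears on the calls was not tested. Of the 21 higher loci, 16 met no GENCODE exon, beside 474 of all 937 loci. All 21 were at 0 in both RelA(TA2) libraries without TNFα. The first of those libraries is the one with many mitochondrial fragments, and without it 20 loci were called in either direction. At 2 h 13 were higher and 4 lower, 2.03% of the loci beside 3.49% of all features (1.75% higher and 1.74% lower). On fragments 73 loci were called at 2 h, 8.7% of the loci beside 25.7% of all features. On FPKM and without that library 25 loci were called.

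One of the loci called at both times was XLOC_017921 (chr6:22445751-22447699, minus strand, 3 exons, 1357 bases), 89670 bases from Fam3c. It was at 1.4 and 1.19, 1.43 and 1.39, and 2.2 and 1.77 FPKM in RelA(wt) cells at 0, 1 and 2 h, and at 1.68 to 2.86 FPKM in RelA(Ser276Ala) cells. RelA(TA2) cells had 0 and 0 without TNFα, 2.21 and 1.92 FPKM at 1 h and 1.78 and 1.66 FPKM at 2 h. Only the RelA(TA2) libraries without TNFα were apart from the other 16. The change passed at 1 h (adjusted p = 5.5e-05) and 2 h (0.00015), and it differed from that of RelA(wt) cells (0.0039 and 0.031).

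A pair of loci lay upstream of Junb, an AP-1 subunit of the immediate-early class. XLOC_021885 (chr8:84983449-84984761, 1313 bases), 4701 bases from Junb, had 41 and 47 fragments at 1 h and 25 and 40 at 2 h in RelA(TA2) cells and was at 0 in the other 14 libraries. It passed at both times (adjusted p = 0.0013 and 0.0017 on FPKM), and its change at 1 h differed from that of RelA(wt) cells (0.036), while at 2 h the difference had an adjusted p of 0.059 on FPKM and 0.019 on fragments. XLOC_021884 (chr8:84981622-84983238), 2874 bases from Junb, was above 0 in all 6 RelA(TA2) libraries, with 14 to 33 fragments, and at 0 in the other 12. Junb went from 17.9 and 19.8 to 101 and 118 FPKM in RelA(wt), from 33.7 and 43.4 to 147 and 111 FPKM in RelA(TA2), and from 16.5 and 16.7 to 110 and 115 FPKM in RelA(Ser276Ala) cells at 1 h. It thus rose in all 3 lines, whereas its upstream loci were seen in RelA(TA2) cells alone, where Junb over all times was 0.62 ± 0.12 higher on the log2 scale than in RelA(wt) (adjusted p = 0.0086). Both loci are single-exon and without strand, so whether they belong to the Junb transcript was not tested.

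Other loci were higher at both times in RelA(TA2) cells. XLOC_001359 (chr1:193282109-193283651), 8921 bases from G0s2, had 11 and 26 fragments at 1 h and 32 and 30 at 2 h, and was at 0 in all other libraries (adjusted p = 0.012 and 0.013). XLOC_008973 (chr17:36527988-36534928, plus strand, 3 exons), 12147 bases from the class Ib histocompatibility gene H2-M11 and in the GRCm38.p6 span of Gm18809, was at 1.48 and 1.72 FPKM at 1 h and 1.84 and 1.5 FPKM at 2 h (0.0038 and 0.0027). It also passed in RelA(wt) cells at 2 h, at 1.96 and 1.01 FPKM (0.0055). At 2 h XLOC_006033, 3480 bases from the basement membrane gene Nid1, had gone from 0 and 0 to 3.49 and 9.26 FPKM in RelA(TA2) cells (0.01), but RelA(wt) cells already held 2.34 to 4.86 FPKM. XLOC_024302 on chromosome X was the one that fell by steps, from 3.13 and 1.42 FPKM to 0.948 and 0.897 FPKM and then to 0 and 0 (adjusted p = 0.0027 at 2 h).

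RelA(Ser276Ala) cells had few loci that were higher, 2 at each time, and 8 and 6 that were lower. Assembled transcripts placed in loci with code u numbered 791 and 855 without TNFα, 691 and 694 at 1 h, and 768 and 753 at 2 h. In all 1.19% of the loci were called at 1 h beside 1.41% of all features (0.855% higher and 0.56% lower), and 0.95% beside 0.991% at 2 h (0.673% higher and 0.318% lower). On fragments 23 and 29 loci were called, 2.74% and 3.46% of the loci beside 5.98% and 9.61% of all features. The 2 at 1 h were XLOC_015787 and the 166-base XLOC_011148, and the 2 at 2 h were XLOC_000625 and XLOC_015298. XLOC_000625 (4 exons), 23275 bases from Tgfb2 and in the GRCm38.p6 span of Gm35546, had 41 and 11 fragments at 2 h in these cells (adjusted p = 0.041). Of the loci that were lower at both times, XLOC_001357, XLOC_020698 and XLOC_021905 were seen without TNFα in RelA(Ser276Ala) cells with 10 to 13 fragments per library and nowhere else. XLOC_001357 and XLOC_020698 lie within the GRCm38.p6 spans of Syt14 and Prmt3. Each value lay close to the lowest number of fragments that was assembled, and all 3 loci were tested through that condition alone. XLOC_016020 had 35 and 11 fragments without TNFα (adjusted p = 0.0042 at 1 h). Without the first library at 1 h, the one with many mitochondrial fragments, 15 loci were called at that time in place of 10.

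**Figure D3:**
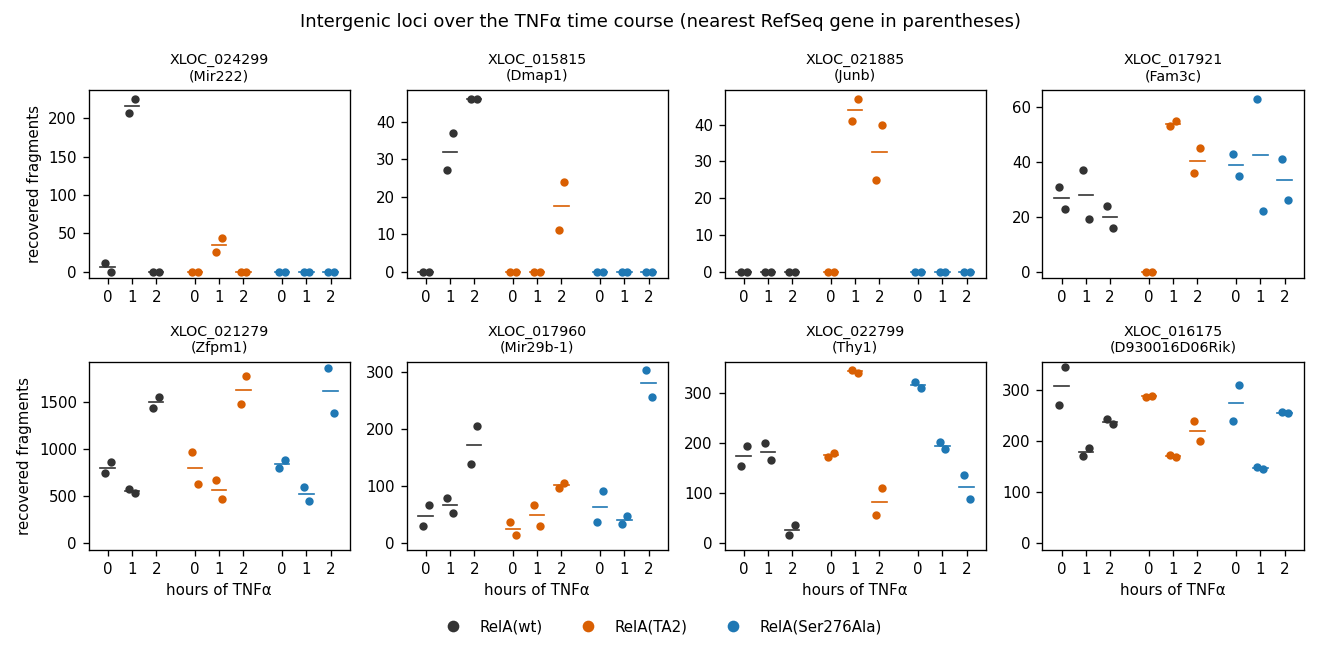
Recovered fragments per library (y axis) for 8 intergenic loci by line and hours of TNFα, with a dot for each of the 2 libraries of a condition and a bar at their mean. XLOC_024299 stands out at 1 h and XLOC_015815 at 1 h and 2 h in RelA(wt) cells, XLOC_021885 in RelA(TA2) cells with TNFα, and XLOC_021279 is high at 2 h in all 3 lines, a rise that FPKM does not show. The rise of XLOC_017960 has the opposite sign on FPKM in RelA(wt) cells, as has the fall of XLOC_016175 in RelA(Ser276Ala) cells.

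At some loci FPKM moved and recovered fragments did not pass. XLOC_018536 (174 bases, in Gm10443) was at 12400 to 32300 FPKM in 16 libraries and at 29.2 and 62.9 FPKM in RelA(Ser276Ala) cells at 1 h, a fall with an adjusted p of 8e-06. The longest piece assembled was 77 to 80 bases in the 16 libraries and 173 and 170 in those 2, and the fragments were 11 to 33 in all, with no call (0.96). XLOC_002446 (chr10:7388096-7388593) was at 236 and 184 FPKM in RelA(Ser276Ala) cells without TNFα and at 7.63 to 20 FPKM elsewhere (8.8e-05 at 1 h). Its fragments there were 58 and 72, against 26 to 59 in the other 16 libraries, and the change on fragments had an adjusted p of 0.81. The longest pieces were 320 and 317 bases there and 282 to 318 bases elsewhere, apart from 486 bases in the first RelA(Ser276Ala) library at 1 h. FPKM is summed over all pieces of a locus, and the lengths of any shorter pieces are not given here.

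Long spliced loci, on the other hand, held larger numbers of fragments, and several moved in all 3 lines. These 4 were chosen after their values were seen. XLOC_021279 (chr8:122230315-122272714, plus strand, 3 exons, 12973 bases), 9427 bases upstream of Zfpm1, a cofactor of GATA factors, had 746 and 858 fragments without TNFα, 578 and 535 at 1 h and 1440 and 1551 at 2 h in RelA(wt) cells. RelA(TA2) cells had 964 and 632, 671 and 463, and 1475 and 1773, and RelA(Ser276Ala) cells had 795 and 884, 597 and 450, and 1857 and 1378. In every line both libraries at 2 h were above all those at 0 h and 1 h. The log2 change at 2 h was 1.04, 1.05 and 1.02 (SE 0.19; adjusted p = 0.0055, 0.0027 and 0.0082), but on FPKM it was -0.43, -0.40 and 0.30, opposite in sign in 2 lines and without a call (0.83, 0.78 and 0.93).

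XLOC_017960 (chr6:31063446-31088349, minus strand, 4 exons, 11119 bases) starts 353 bases from Mir29b-1, a microRNA gene whose family targets collagen mRNAs, and 24.2% of its bases lie in exons of the non-coding gene Lncpint. Its fragments at 0 h and 2 h were 30 and 66 against 139 and 205 in RelA(wt), 36 and 14 against 97 and 106 in RelA(TA2), and 37 and 91 against 304 and 257 in RelA(Ser276Ala) cells. The groups did not overlap in any line, with log2 changes of 1.99, 2.04 and 2.30 (SE 0.52; adjusted p = 0.031, 0.015 and 0.02), while FPKM gave -0.26, 1.67 and 2.13 without a call. XLOC_022799 (chr9:43927177-43951733, minus strand, 3 exons, 14845 bases) went the other way, from 153 and 194 to 15 and 35 fragments at 2 h in RelA(wt), from 171 and 180 to 55 and 110 in RelA(TA2) and from 322 and 309 to 136 and 87 in RelA(Ser276Ala) cells. It fell by 2.65, 1.15 and 1.42 on the log2 scale of fragments (SE 0.35; adjusted p = 0.00065, 0.031 and 0.026), and FPKM gave the same signs without a call (0.086, 0.32 and 0.72). XLOC_016175 (chr5:104580372-104584679, plus strand, 3 exons, outside all GENCODE exons) went from 271 and 345 to 171 and 187 fragments at 1 h in RelA(wt), from 287 and 289 to 173 and 169 in RelA(TA2) and from 240 and 310 to 148 and 144 in RelA(Ser276Ala) cells. It fell by 0.88, 0.71 and 0.77 on the log2 scale of fragments (SE 0.14; adjusted p = 0.0026, 0.0072 and 0.0063), and FPKM had the other sign in RelA(Ser276Ala) cells (0.01).

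Loci next to known TNFα-responsive and immediate-early genes were examined as a list. The nearest gene of 11 loci was in the list, 2 near TNFα targets and 9 near immediate-early genes. Of the 11, 1 was called on FPKM in a TNFα comparison, XLOC_021885, beside 6.79% of all tested loci and 6.4% of all features. That locus entered the test through the RelA(TA2) libraries with TNFα alone. The other loci described from the list were chosen after their values were seen. XLOC_003811 (5 exons, minus strand) starts 383 bases from the chemokine gene Ccl2 on the opposite strand. It had 12 and 10, 0 and 0, and 254 and 101 fragments in RelA(wt) cells at 0, 1 and 2 h, 26 and 0, 17 and 0, and 229 and 39 in RelA(TA2), and 13 fragments in 1 of 6 RelA(Ser276Ala) libraries. Its libraries at 2 h were the highest in the first 2 lines but differed widely from each other, and no TNFα change passed on FPKM or fragments (0.096 for RelA(wt) and 0.072 for RelA(TA2) at 2 h on fragments). XLOC_013746, which reaches into the Ccn1 promoter printed above, had 96 and 100, 388 and 212, and 248 and 256 fragments in RelA(wt) cells and up to 359 in RelA(TA2) cells, but 1 RelA(Ser276Ala) library at 1 h was at 0, and it had no call (adjusted p = 0.74 for RelA(wt) at 1 h). XLOC_014643, the Junos transcript 611 bases from Jun, stayed between 133 and 259 fragments with no call.

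With 6 libraries a line, the lines differed at more loci than the time points did. RelA(TA2) and RelA(wt) cells differed at 47 loci over all times, 23 higher and 24 lower in RelA(TA2), and RelA(Ser276Ala) and RelA(wt) cells at 48, 19 higher and 29 lower. These were 5.6% and 5.72% of the loci beside 10.8% and 11.5% of all features, of which 5.22% and 6.54% were higher and 5.54% and 4.96% lower. On fragments 111 and 130 loci were called, 13.23% and 15.49% of the loci beside 38.8% and 41.8% of all features. Both measures called 22 of 23 and 21 of 24 for RelA(TA2), and 18 of 19 and 27 of 29 for RelA(Ser276Ala). Without the library with many mitochondrial fragments in each mutant line, the counts were 39 and 40. Both comparisons share the RelA(wt) libraries.

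**Figure D4:**
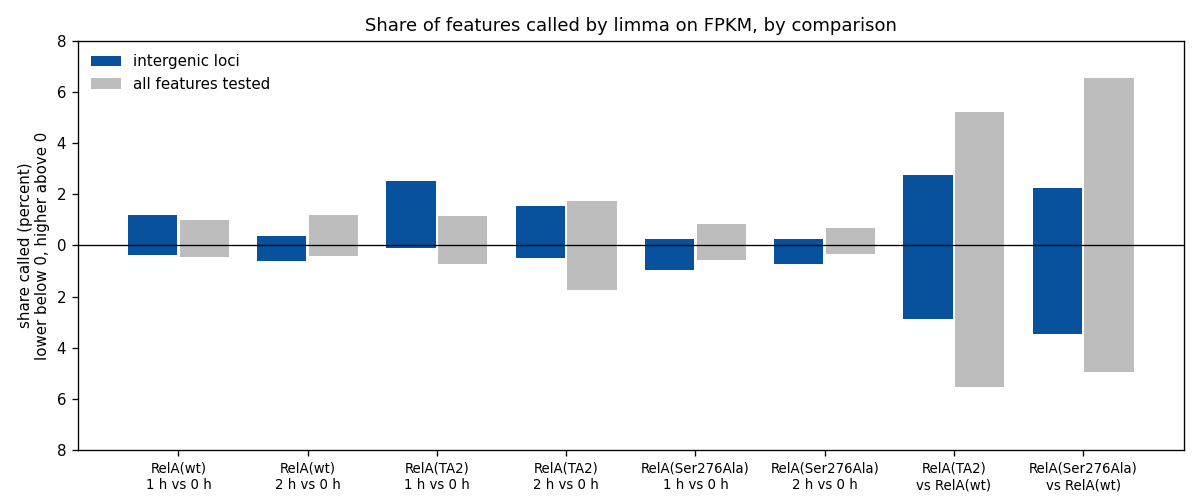
Percent of the 839 tested intergenic loci and of all 13217 features called on FPKM in each of 8 comparisons (y axis), higher above 0 and lower below 0. The bars of the loci are taller than those of all features for higher calls in RelA(TA2) cells at 1 h (2.5% beside 1.16%) and shorter for both lines, 5.6% beside 10.8% and 5.72% beside 11.5%.

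XLOC_011858, the longest locus, was found in 1 line alone. With 17331 exonic bases in 10 exons on chromosome 2 and none of them in a GENCODE exon, it had 1625 and 1571 fragments without TNFα, 889 and 1029 at 1 h, and 1576 and 1667 at 2 h in RelA(Ser276Ala) cells, or 12.3 to 37.9 FPKM. All 12 libraries of the other lines were at 0. Its nearest gene, 5330413P13Rik, is 70231 bases away. XLOC_011144 (chr19:5817295-5819208), 14624 bases upstream of the nuclear non-coding RNA gene Malat1, was likewise above 0 in all 6 RelA(Ser276Ala) libraries, with 33 to 65 fragments, and in no other (0.00072). XLOC_008630, with 34 to 88 fragments in RelA(Ser276Ala) cells and 2 RelA(TA2) libraries above 0, was higher too (0.0037) and was not called in RelA(TA2) cells (0.41). It lies in the GRCm38.p6 span of 6430553K19Rik. Its nearest gene Dppa4, a chromatin factor of pluripotent cells, lies 158928 bases away and was called higher in both mutant lines, being listed at 0 in all RelA(wt) libraries, at 1.71 to 5.13 FPKM in RelA(TA2) and at 2 to 11 FPKM in RelA(Ser276Ala) cells.

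In RelA(TA2) cells a pair of loci at 0 in all 6 libraries were above 0 in all 12 of the other lines. XLOC_020113 (chr7:65859740-65862011, minus strand, 3 exons, in the GRCm38.p6 span of Gm20684), which starts within the Pcsk6 promoter printed above, was at 1.25 to 12.1 FPKM in RelA(wt) and 1.75 to 11 FPKM in RelA(Ser276Ala) cells (adjusted p = 0.0011). Pcsk6 went the same way, at 12.4 to 13.5 FPKM in RelA(wt), 3.97 to 5.11 FPKM in RelA(TA2) and 9.43 to 11.6 FPKM in RelA(Ser276Ala) cells (log2 difference of RelA(TA2) from RelA(wt) -1.36, adjusted p = 2e-07). XLOC_023257 (chr9:72949196-72952210), 279 bases behind Pygo1, a Wnt cofactor, lies for 99% of its bases in the longer GENCODE form of that gene and was lower together with it (adjusted p = 0.0001 for the locus, and -1.56 with 0.048 for Pygo1). Among nearest genes tested, 4 of 17 for loci lower in RelA(TA2) and 5 of 13 for loci higher were called in the same direction and 3 and 2 in the opposite one. For RelA(Ser276Ala) it was 2 of 23 and 5 of 13 in the same and 2 and 0 in the opposite direction. Over all features 5.54% were called lower and 5.22% higher in RelA(TA2), and 4.96% and 6.54% in RelA(Ser276Ala).

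Other loci differed while present in several lines. XLOC_004301 (chr11:120767851-120768296) was at 30.1 to 69.7 FPKM in RelA(wt), 8 to 20.4 FPKM in RelA(TA2) and 26.6 to 40.2 FPKM in RelA(Ser276Ala) cells, and every RelA(TA2) library lay below every RelA(wt) library (log2 difference -1.46 ± 0.18 SE, adjusted p = 0.00056). XLOC_024078 (chrX:86397685-86401087, minus strand), mostly in Mageb7-ps, was at 0 to 1.82 FPKM in RelA(wt) and 2.81 to 3.52 FPKM in RelA(TA2) cells, higher by 2.03 ± 0.25 SE (0.00056). XLOC_017497, 13234 bases of chromosome 6 outside GENCODE exons, had 118 to 224 fragments in RelA(wt) and 12 to 89 in RelA(Ser276Ala) cells (log2 difference on FPKM -1.50 ± 0.34 SE, adjusted p = 0.016). XLOC_011313, which is Brd3os, was lower by a small and even step in RelA(Ser276Ala) cells, 3.47 to 5.52 FPKM against 5.79 to 8.4 FPKM in RelA(wt) (-0.58 ± 0.09 SE, 0.0025), with no call for its neighbour Brd3 (adjusted p = 0.44). XLOC_020790 (4 exons) was lower in both mutant lines, by -0.74 ± 0.18 SE and -0.82 ± 0.18 SE (0.027 and 0.017).

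A pair of long loci separated the lines on fragments, and both were chosen after their values were seen. XLOC_007071, with 41 exons and 92.1% of its bases in the GENCODE exons of the coding gene Fer1l6, had 688 to 876 fragments in RelA(wt), 248 to 368 in RelA(TA2) and 768 to 892 in RelA(Ser276Ala) cells. RelA(TA2) was lower by -1.35 ± 0.07 SE (adjusted p = 1e-07), whereas FPKM had the opposite sign (0.58, adjusted p = 0.42). XLOC_023362 (chrX:21565603-21618977, plus strand, 3 exons) had 108 to 213 fragments in RelA(wt), 229 to 583 in RelA(TA2) and 29 to 77 in RelA(Ser276Ala) cells, with log2 differences of 1.30 and -1.35 from RelA(wt) (0.00013 and 8.6e-05) and no overlap between lines. FPKM gave 0.38 and -1.68 with no call.

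**Figure D5:**
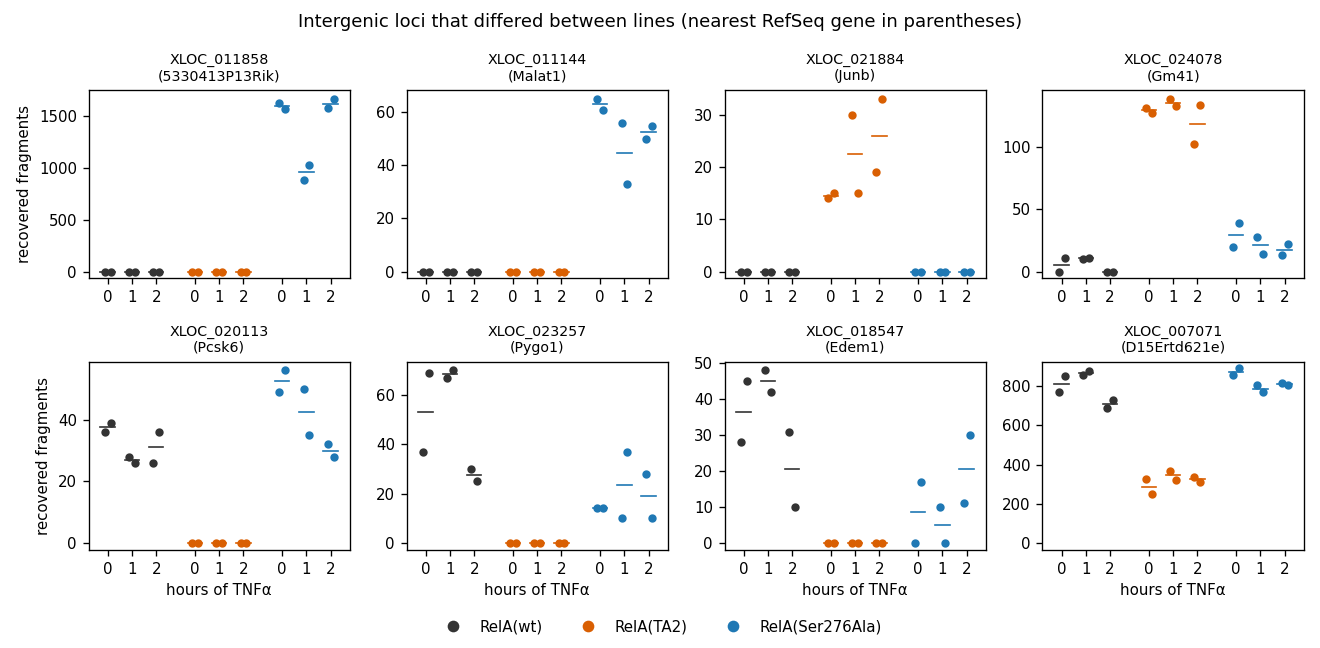
Recovered fragments per library (y axis) for 8 intergenic loci by line and hours of TNFα, with a dot for each library and a bar at the mean of the 2. XLOC_011858 and XLOC_011144 are above 0 in RelA(Ser276Ala) cells alone, XLOC_021884 in RelA(TA2) cells alone, and XLOC_020113 and XLOC_023257 in all libraries but those of RelA(TA2); for XLOC_007071 the lower fragments in RelA(TA2) cells go against its FPKM.

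Of all loci tested, 57 were called in at least 1 TNFα comparison and 79 in at least 1 comparison of lines, and 36 were in both sets. These were 6.79%, 9.42% and 4.29% of the loci beside 6.4%, 18% and 3.18% of all features. The TNFα change of a mutant line differed from that of RelA(wt) cells at 3 loci in RelA(TA2) at 1 h and 1 at 2 h, all higher, and at 3 loci in RelA(Ser276Ala) at 1 h and 1 at 2 h, all lower. Leaving out 1 library moved these counts to 2 to 10 and 1 to 8 for RelA(TA2), and to 3 to 10 and 1 to 7 for RelA(Ser276Ala). Both counts at 2 h were highest without the first RelA(wt) library at 0 h. At 1 h the count for RelA(TA2) was highest without the first RelA(wt) library at 1 h, and that for RelA(Ser276Ala) was equally high without that library, the first RelA(wt) library at 0 h or the second RelA(Ser276Ala) library at 1 h. Over all features, in the same order, 0.325% (0.166% higher and 0.159% lower), 0.219% (0.0757% and 0.144%), 0.242% (0.0832% and 0.159%) and 0.174% (0.0454% and 0.129%) were called. On fragments the loci called numbered 12, 5, 2 and 2. These were 1.43%, 0.6%, 0.24% and 0.24% of the loci beside 1.82%, 0.416%, 0.235% and 0.272% of all features.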

How the data were processed

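RNA was prepared from fibroblasts in 9 conditions with 2 libraries each, converted with poly-dT priming and TruSeq reagents, and sequenced on a HiSeq 2000. Per the submitters' processing notes, the authors used CASAVA 1.8.2, TopHat2 2.0.5, Bowtie2 2.0.0.7, Cufflinks 2.0.2 and Cuffdiff with mm10. The deposited values are FPKM with confidence bounds, held in the attribute text of each library's assembled transcripts, beside a merged assembly with class codes. Here the FPKM of assembled transcripts with at least 50% of their bases in a locus were summed, and features with at least 1 FPKM in 2 libraries were fitted with limma 3.58.1 in R 4.3.3 (trend, log2(FPKM + 0.5), 9 condition means, 12 comparisons, Benjamini-Hochberg, threshold 0.05). A fold on this scale understates the change of low loci. Fragments were recovered as FPKM times a factor for transcript length, and fitted per M fragments in RefSeq genes with 0.1 added. The factor was calibrated in each library on the ratio of upper bound to FPKM of genes with 1 assembled transcript. Libraries held 25.3 to 31.2 M fragments, and the median value above 0 of 25 fragments limits precision. GENCODE M21, RefSeq GRCm38.p6 tables and blastn 2.17.0 gave annotation and sequence matches. Named loci were, per comparison and direction, up to 10 with the largest change among those called with libraries that did not overlap, the 10 highest, the 5 longest, the 5 with most exons and those called near listed genes. Members and lists were chosen with earlier results of these data known. The fit was tested on simulated data. The difference of the first from the second library of a condition was correlated over features between conditions. Over the 36 pairs of conditions the correlations ran from -0.0672 to 0.108, with 1 over 0.1, so replicate numbers were not treated as pairs. The alternatives were other added values, filters, scaling, fragments, transcripts of at least 300 bases, a replicate block and leaving out each library.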

Additional observations from a re-analysis of the deposited data

Results flagged for a closer look

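At 6 loci the response to TNFα of a mutant line differed from that of RelA(wt) cells by limma's test of the difference. XLOC_017921, 89670 bases from Fam3c, was listed at 0 in RelA(TA2) cells without TNFα and was above 0 in all other libraries, and the difference of the changes passed at 1 h (adjusted p = 0.0039) and 2 h (0.031). It passed on recovered fragments as well (0.006 and 0.014). XLOC_021885, upstream of Junb, was seen in RelA(TA2) cells with TNFα alone and passed at 1 h (0.036), although it entered the test through those libraries alone and so had to differ. XLOC_020698, 2160 bases from Prmt3 as assembled and within its GRCm38.p6 gene span, was seen with 12 and 13 fragments in RelA(Ser276Ala) cells without TNFα and nowhere else. It passed at 1 h on FPKM (0.044) and not on fragments (0.33), and it too entered the test through that condition alone.

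The other 3 loci also passed on FPKM. XLOC_018536 passed for RelA(Ser276Ala) at 1 h (adjusted p = 0.00048), with a log2 difference of 0.03 on fragments. XLOC_002446 passed for RelA(Ser276Ala) at 1 h (0.0044) and 2 h (0.019), with an adjusted p of 1 at both times on fragments. XLOC_010344 passed for RelA(TA2) at 1 h (0.028), with a log2 difference of 0.2 and an adjusted p of 0.86 on fragments. The sign on FPKM turned when transcripts under 300 bases were left out.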

How the results depend on the processing

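Numbers of loci called are given in the order RelA(wt), RelA(TA2) and RelA(Ser276Ala). On recovered fragments they were 37, 73 and 23 at 1 h, 34, 73 and 29 at 2 h, 111 and 130 between lines, and 12, 5 and 2 for the differences of response (RelA(TA2) at 1 h and 2 h, RelA(Ser276Ala) at 2 h). With at least 5 FPKM in 2 libraries 350 loci were left, and the counts were 1, 3 and 3 at 1 h, 3, 4 and 2 at 2 h, 12 and 15 between lines, and 1 and 0 for RelA(TA2) differences of response. With no filter they were 22 for RelA(wt) at 1 h, and 3 and 2 for the differences at 2 h. Adding 0.1 gave 13 for RelA(wt) at 2 h, 7 and 5 for the differences at 1 h, and 4 and 5 at 2 h, and adding 1 gave 0 for RelA(TA2) at 2 h. With transcripts of at least 300 bases the counts were 6 for RelA(Ser276Ala) at 1 h, 1 for the RelA(TA2) difference at 1 h, and 0 and 0 for RelA(Ser276Ala) at 1 h and 2 h. Where limma gave 0, loci with an unadjusted p under 0.05 numbered 61 with 1 added, 24 with at least 5 FPKM, and 55 and 47 with 300 bases, and recovered fragments gave 5 for RelA(TA2) at 2 h. The number of loci was 168 when all 18 libraries had to be above 0 and 1408 when 1 was enough, in place of 937. Signs turned for XLOC_018536 on fragments (0.03), for XLOC_021860 in RelA(TA2) at 2 h on fragments (0.13) and with 300 bases (1.34), and with 300 bases for XLOC_002446 (0.26 at 2 h) and XLOC_010344 (2.55 for RelA(wt) at 1 h and -2.55 for the RelA(TA2) difference). The cause was not tested.

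With the replicate number as a block, the RelA(TA2) difference at 2 h had 0 calls (64 loci with an unadjusted p under 0.05), and 72 of 91 named calls kept their direction and threshold, beside 78 on fragments. Pairing by number was not shown by the correlations.

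Leaving out 1 library gave 9 to 19 loci in RelA(wt) at 1 h, 5 to 13 at 2 h, 15 to 22 and 12 to 25 in RelA(TA2), 9 to 20 and 5 to 14 in RelA(Ser276Ala), 30 to 53 and 34 to 51 between lines, and for differences of response 2 to 10 and 3 to 10 at 1 h and 1 to 8 and 1 to 7 at 2 h. The RelA(wt) count at 2 h was 13 without its first library at 0 h and 5 without either RelA(TA2) library at 1 h. The RelA(Ser276Ala) counts were 20 at 1 h and 14 at 2 h without the second library of that time, and 5 at 2 h without either RelA(wt) library at 0 h or RelA(TA2) library at 2 h. The RelA(TA2) count against RelA(wt) was 30 without the second RelA(wt) library at 2 h. Named calls kept their threshold in 1232 of 1638 such fits and their direction in all.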
